A study of Mus musculus with 479 samples.

Results

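Collagen alpha chain genes were taken as every row of the deposited gene tables whose mouse symbol is Col, a number, the letter a and a number, which gave 44 members of the 24475 gene identifiers listed. By the type of collagen they build, 11 encode chains of fibrillar collagens, 6 of type IV, 6 of type VI, 9 of fibril-associated collagens, 4 of transmembrane collagens, 3 of types VIII and X, 2 of the multiplexins XV and XVIII, 2 of types XXVI and XXVIII, and 1 of type VII. The choice used symbols only and no measured value. Col1a1, Col3a1 and Col6a3, the chains named as markers of the set, were measured in every library group.

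Collagens are triple helices of 3 alpha chains, which are hydroxylated and folded in the endoplasmic reticulum, secreted, trimmed and crosslinked outside the cell. Types I, III and V form the fibrils that give tissues tensile strength. Type IV forms the sheet-like network of basement membranes under epithelia and around vessels, and type VI forms beaded filaments near cell surfaces. In heart, kidney and lung the fibrillar chains are made largely by fibroblasts. In liver the stellate cell is the main source of fibrillar chains, and hepatocytes are known for type XVIII.

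The 4 tissues sequenced were lung, liver, kidney and heart, from 2 mouse lines made with the VelociGene method of Regeneron. Mice of the first line were heterozygous for a modified Dchs1 allele (Dchs1+/-, here Dchs1 Het) and mice of the second for a modified Fat4 allele (Fat4+/-, here Fat4 Het). Wild-type (WT) littermates of the same line served as controls, and all mice were C57BL/6NTac. Dchs1 and Fat4 are giant cadherins that bind each other across neighbouring cells. The modification is a germline allele and is therefore present in every cell type of a tissue. The labels give no age, sex, litter or sequencing batch, and do not state that each library is another animal. The p-values therefore set group differences against the spread between libraries, which may not be the spread between animals. The title of the series asks how many mice such RNA-seq comparisons need.

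The chains of 1 trimer are often encoded side by side, and the promoters of 5 chains that carry results given further on are shown from RefSeq on GRCm38.p6, from 250 bases before to 50 bases after the start. Col4a1 and Col4a2, which form the common type IV trimer, start 21 bases apart on opposite strands of chromosome 8, so that their windows chr8:11312777-11313076 (minus strand) and chr8:11312555-11312854 (plus strand) share 78 bases. Col6a1 (chr10:76725995-76726294, minus strand) and Col6a2 (chr10:76623355-76623654, minus strand) lie on chromosome 10, and Col6a3 (chr1:90843922-90844221, minus strand) lies on chromosome 1. Type VI is shown because its chains diverged in Dchs1 Het tissues. Capitals mark matches, on either strand, to any of 4 motifs: the TATA box letters TATAAA, the CCAAT box, the Sp1 type letters GGGCGG and the TEAD type letters GGAATG.
Col4a1: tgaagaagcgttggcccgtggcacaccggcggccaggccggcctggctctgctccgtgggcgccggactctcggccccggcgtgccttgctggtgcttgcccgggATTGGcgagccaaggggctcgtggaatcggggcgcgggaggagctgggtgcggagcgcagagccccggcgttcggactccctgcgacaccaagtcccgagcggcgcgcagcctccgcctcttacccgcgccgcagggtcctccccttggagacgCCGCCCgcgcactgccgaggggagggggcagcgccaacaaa
Col4a2: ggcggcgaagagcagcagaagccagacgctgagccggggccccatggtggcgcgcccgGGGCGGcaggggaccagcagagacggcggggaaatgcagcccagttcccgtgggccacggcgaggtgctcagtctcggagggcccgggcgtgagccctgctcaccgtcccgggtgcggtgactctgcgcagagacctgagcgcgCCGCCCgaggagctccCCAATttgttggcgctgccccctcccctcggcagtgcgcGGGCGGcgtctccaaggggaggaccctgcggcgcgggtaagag
Col6a1: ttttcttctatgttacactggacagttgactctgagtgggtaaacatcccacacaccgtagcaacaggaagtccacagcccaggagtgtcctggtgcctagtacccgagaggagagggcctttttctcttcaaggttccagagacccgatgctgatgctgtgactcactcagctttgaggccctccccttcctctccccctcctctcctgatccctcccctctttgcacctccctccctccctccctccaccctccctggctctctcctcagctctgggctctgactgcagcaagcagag
Col6a2: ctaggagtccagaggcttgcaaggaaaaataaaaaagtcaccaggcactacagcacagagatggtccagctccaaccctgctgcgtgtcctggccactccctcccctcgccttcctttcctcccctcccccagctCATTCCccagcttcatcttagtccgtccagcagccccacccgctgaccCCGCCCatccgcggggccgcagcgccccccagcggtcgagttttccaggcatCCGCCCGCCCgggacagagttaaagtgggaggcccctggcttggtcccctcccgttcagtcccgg
Col6a3: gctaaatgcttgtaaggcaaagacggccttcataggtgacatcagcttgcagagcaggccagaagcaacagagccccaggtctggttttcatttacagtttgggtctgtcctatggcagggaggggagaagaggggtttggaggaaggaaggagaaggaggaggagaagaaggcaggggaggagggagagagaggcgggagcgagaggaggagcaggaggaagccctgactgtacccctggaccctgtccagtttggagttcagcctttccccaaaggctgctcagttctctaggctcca
The Col4a1 window held 1 CCAAT and 1 GGGCGG, and the Col4a2 window 1 CCAAT and 3 GGGCGG. The Col6a2 window held 3 GGGCGG and 1 GGAATG, while those of Col6a1 and Col6a3 held none of the 4 motifs. Of the 44 members, 35 had a window in the table and 3 of these had more than 1, Col6a2 among them, which gave 38 windows. GGGCGG was found in 23 of the 38 windows (60.5%), against 35.7% of all 32851 windows of that length. CCAAT was found in 34.2% of member windows against 37.4% of all windows, TATAAA in 13.2% against 13.6%, and GGAATG in 13.2% against 14.7%. A match describes the letters only.

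The 479 libraries fell into 16 groups of line, tissue and genotype, each of 30 libraries except Dchs1 Het liver with 29, and held 10720364 to 32282525 reads assigned to genes. The targeted gene fell in each Het group: Dchs1 was lower by 1.10 to 1.24 on the log2 scale in Dchs1 Het tissues and Fat4 by 0.95 to 1.07 in Fat4 Het tissues, and every Het library lay below the WT median. Marker genes of heart, kidney, liver and lung were highest in the tissue of that name. Summed heart markers were also present in lung, with group medians of 295 to 373 CPM (read counts scaled to library size and by TMM) and up to 708 CPM in a Fat4 Het lung library. Summed lung markers had medians under 0.1 CPM in heart and reached 283 CPM in a Fat4 WT heart library. In each Dchs1 tissue 1 WT library lay with the Het libraries. Its position was taken over the 500 other genes whose Het and WT means differed most in these data when that library was left out. On this scale 0 is the mean of the other WT libraries and 1 the mean of the Het libraries. The position was 1.54 for heart, 1.05 for kidney, 1.36 for liver and 1.78 for lung. The next WT library stood at 0.67, 0.50, 0.64 and 0.70 in those tissues. Its Dchs1 level was 9.71, 8.01, 2.23 and 11.1 CPM there. The highest Het libraries stood at 9.29, 6.68, 1.94 and 12.7 CPM. In heart and kidney the library lay below every other WT library, the lowest of which stood at 10.6 and 8.85 CPM, and in liver and lung it lay among the other WT libraries. These libraries were WT replicate 14 in heart, 14 in kidney, 23 in liver and 22 in lung, and the labels do not say whether they are 1 animal. They lowered several WT minima given in the following paragraphs: Col6a3 was at 6.64 CPM in the heart library, where the other WT hearts spanned 16.9 to 37.6 CPM. Without them the Dchs1 comparisons called 21 members in heart, 18 in kidney, 12 in liver and 18 in lung, against 17, 18, 13 and 17 with them. On the same scale 5, 2, 1 and 2 WT libraries of the Fat4 line stood at 1 or more in heart, kidney, liver and lung. Fat4 Het libraries at 0 or less numbered 6, 1, 0 and 3 there, against 0 in each Dchs1 tissue. Of all genes only 128 were called higher and 83 lower in Fat4 heart, and 17 and 4 in Fat4 lung. The 500 genes there therefore include many that were not called, and the counts of the lines are not on equal terms. Fits without such WT libraries were made for the Dchs1 line only.

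In WT tissues type IV chains made up the largest share of collagen transcripts in heart, kidney and lung, and type XVIII in liver. In the Dchs1 line type IV accounted for 49.2 ± 5.59% of summed collagen TPM (a per-transcript-length share of the library) in WT heart, 57.8 ± 2.57% in WT kidney and 42.9 ± 5.29% in WT lung, but 4.83 ± 0.76% in WT liver (SD, n = 30 each). The multiplexins made up 79.7 ± 2.9% in WT liver. Fibrillar chains held 30 ± 3.6% in WT heart and 31.6 ± 4.63% in WT lung, and type VI 12.6 ± 1.4% and 15 ± 1.36% there. The Fat4 line gave nearly the same mixture, with type IV at 48.3 ± 5.03%, 57.5 ± 1.82%, 5.01 ± 0.8% and 44.9 ± 4.01% in WT heart, kidney, liver and lung.

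**Figure D1:**
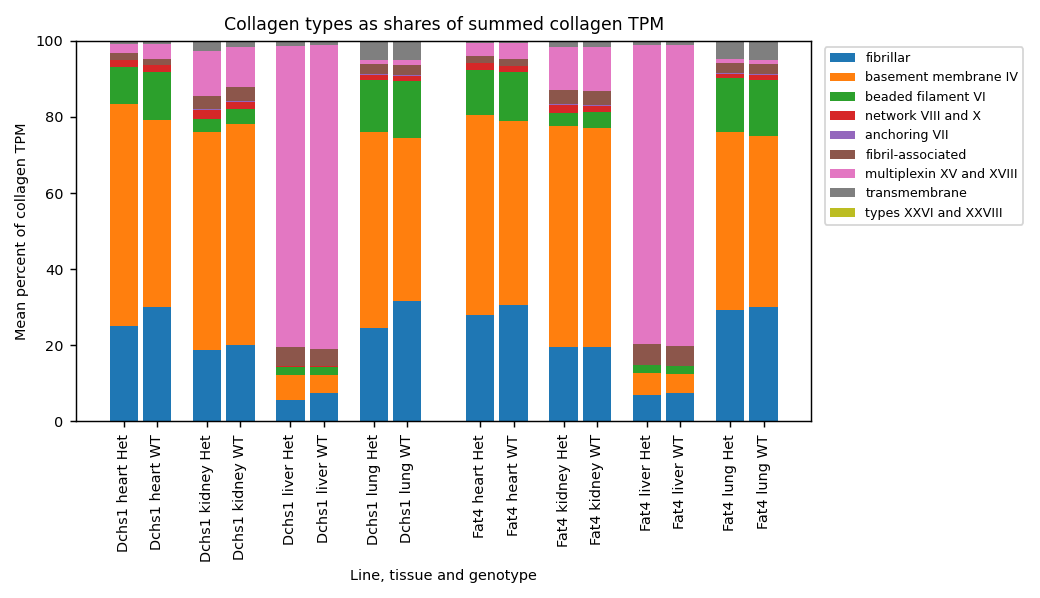
Share of each collagen type in the summed TPM of all 44 members, in percent, for Het and WT libraries of each line and tissue. Type IV fills the largest share in heart, kidney and lung, and the multiplexins, mostly Col18a1, fill 78.3 to 79.7% on average in the 4 liver groups.

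The levels of collagen chains separated the tissues in both lines. All 38 members tested in the Dchs1 line and all 36 in the Fat4 line differed among the 4 WT tissues by edgeR's quasi-likelihood test at an adjusted p under 0.05, as did 99.7% and 99.8% of all genes tested. In the Dchs1 line 28 members reached at least 1 TPM on average in WT lung, 21 in kidney, 20 in heart and 14 in liver, and 11 members reached it in all 4 tissues. The order of the tissues was the same in both lines for 34 of the 44 members. Library numbers ran mostly in stretches of 1 tissue, so tissue and the order of the libraries cannot be told apart.

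The scale changes which tissue ranks highest. The 10 most abundant genes took a median of 55.9% of all TPM in WT hearts of the Dchs1 line and 24.1% in WT lungs, and TPM of the median gene was 2.85-fold lower in heart than in lung. On the TMM scale of edgeR, which centres on the typical gene, that median difference was 0.05 (log2, heart minus lung). Of 30 members with at least 1 TPM in the Dchs1 line, 22 were highest in lung, 4 in heart, 3 in kidney and 1 in liver by TPM, and 15, 10, 3 and 2 by TMM-scaled counts. The highest tissue was the same on both scales for 22 of these 30 members and for 27 of 31 in the Fat4 line.

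Among fibrillar chains, Col1a1 and Col1a2, the chains of type I, and Col3a1, the chain of type III, had their highest TPM in lung. Col3a1 averaged 133 ± 48.4 TPM in WT lung, 34.9 ± 10.8 TPM in WT heart, 6.88 ± 1.9 TPM in WT kidney and 4.04 ± 1.96 TPM in WT liver of the Dchs1 line. On the TMM scale Col3a1 in heart and lung could not be told apart in that line (log2 heart minus lung -0.15 ± 0.126 SE, edgeR adjusted p = 0.259), and it was lower in heart by 0.25 in the Fat4 line (adjusted p = 0.014). Col1a1 averaged 57.3 ± 14.9, 18.7 ± 4.6, 4.8 ± 1.38 and 1.24 ± 0.558 TPM in WT lung, heart, kidney and liver. The fibrillar chains did not share 1 pattern. Col27a1, a fibrillar chain first known from cartilage, stood out in kidney at 29.1 ± 5.56 TPM, against 3.52 ± 2.12 TPM in WT liver, 3.38 ± 0.935 TPM in WT lung and 0.579 ± 0.141 TPM in WT heart. Its kidney minus lung difference was 4.19 ± 0.134 (log2, SE, edgeR adjusted p = 3.79e-59). Col5a3, a minor chain of type V fibrils, had 7.12 ± 0.831 TPM in WT heart and 5.91 ± 2.8 TPM in WT liver, above 1.81 ± 0.445 TPM in WT lung.

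The type IV chains split into the common and the specialised pair. Col4a1 averaged 176 ± 62.1 TPM in WT lung, 87.7 ± 8.99 TPM in WT heart, 55.2 ± 8 TPM in WT kidney and 7.13 ± 1.22 TPM in WT liver of the Dchs1 line. On the TMM scale it was higher in heart than in lung, by 0.57 ± 0.0549 (log2, SE, edgeR adjusted p = 2.67e-18), so its leading tissue depends on the scale. Col4a3 and Col4a4, which with Col4a5 build the network of the mature glomerular basement membrane, were high in lung and kidney. Col4a3 averaged 57.5 ± 22.3 TPM in WT lung and 41.1 ± 10.5 TPM in WT kidney, but 0.947 ± 0.181 TPM in WT heart and 0.0429 ± 0.0186 TPM in WT liver. Col4a4 averaged 33.9 ± 9.88 TPM in WT lung and 34.5 ± 5.98 TPM in WT kidney, a difference within the spread between libraries, and 1.46 ± 0.215 TPM in WT heart and 0.0747 ± 0.0371 TPM in WT liver. By TMM both were higher in kidney than in lung, by 0.66 and 1.15 (log2, edgeR adjusted p = 5.41e-13 and 1.04e-38).

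Type VI and the remaining types each had leading tissues of their own. Col6a1 and Col6a2, the chains shared by type VI trimers, averaged 90 ± 20.4 and 48.6 ± 12.4 TPM in WT lung of the Dchs1 line, and Col6a3, the large chain, 15.6 ± 6.48 TPM. On the TMM scale Col6a2 in heart and lung of that line could not be told apart (edgeR adjusted p = 0.962). Col6a6, an alternative to Col6a3, was instead highest in heart, at 1.3 ± 0.322 TPM, with a mean of 0.288 ± 0.158 TPM or less in the other WT tissues. Col15a1, the multiplexin of vascular and muscle basement membranes, was also highest in heart, at 10 ± 3.19 TPM against 2.92 ± 1.09 TPM in WT lung. Col18a1, the precursor of endostatin, reached 205 ± 33.5 TPM in WT liver, 28.7 ± 3.98 TPM in WT kidney, 9.87 ± 3.19 TPM in WT lung and 3.58 ± 1.2 TPM in WT heart. On the TMM scale Col18a1 in kidney was lower than in liver by 3.40 ± 0.0871 (log2, SE, edgeR adjusted p = 1.61e-69), and its heart minus lung difference was 0.04 (adjusted p = 0.637). The transmembrane collagen Col23a1 was largely a lung transcript, at 28.4 ± 4.53 TPM, 34.9-fold the next tissue, with 0.813 ± 0.149 TPM in WT kidney. Col13a1, another transmembrane chain, averaged 20.8 ± 7.52 TPM in WT lung and 0.505 ± 0.131 TPM in WT heart. Col14a1, a fibril-associated chain, had similar levels in WT lung, at 11.9 ± 3.93 TPM, and WT liver, at 10.6 ± 2.79 TPM, while on the TMM scale it was higher in liver than in lung by 1.38 (log2, edgeR adjusted p = 4.81e-26). The 13 members under 1 TPM in every WT group, among them the cartilage chains Col2a1, Col9a1 and Col10a1, reached at most 0.733 TPM on average (Col11a2). Of 6 cartilage markers, Chad alone was above a median of 2 CPM in lung, at 70.2 CPM in Dchs1 Het and 65.2 CPM in Dchs1 WT libraries, and Matn1 was at a median of 0.

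**Figure D2:**
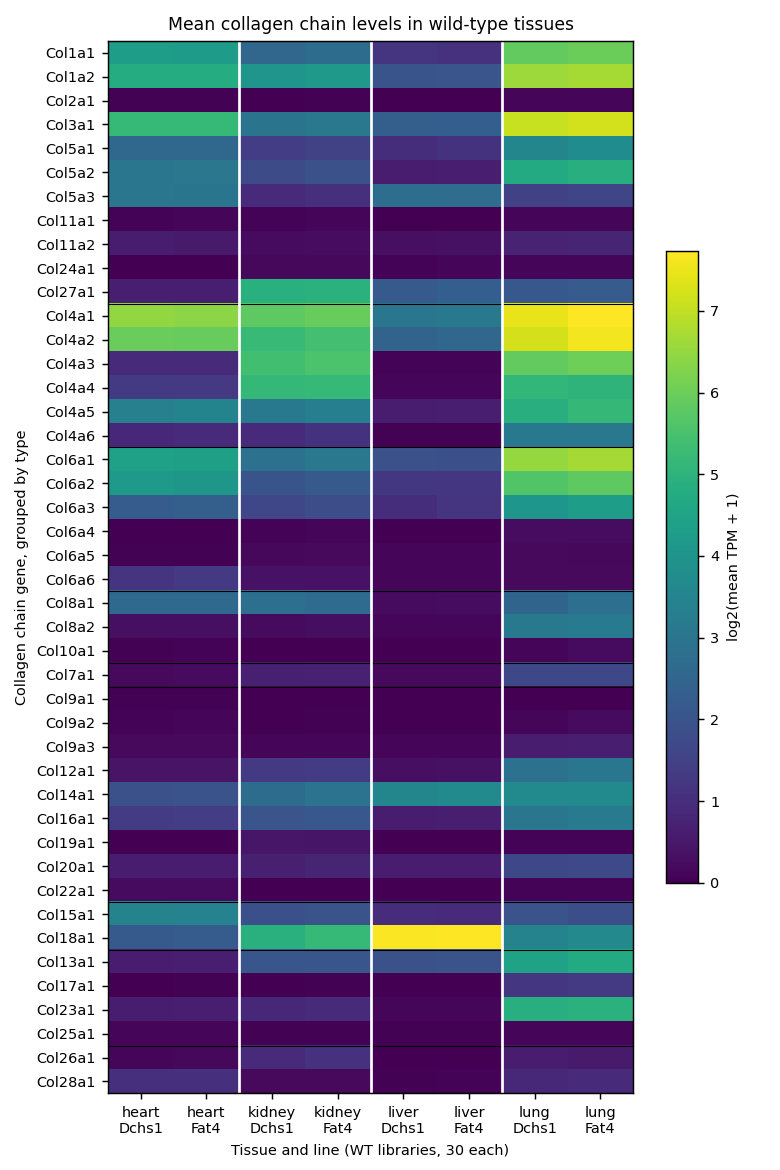
Mean level of the 44 collagen chains in the WT tissues of each line, as log2(mean TPM + 1) in colour, grouped by collagen type. Col18a1 peaks in liver, Col27a1 in kidney and Col23a1 in lung, while Col4a3 and Col4a4 are high in kidney and lung.

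Within a tissue, most pairs of chains examined varied together across the WT libraries, whether or not they share a trimer. Pearson's r of log2(TPM + 1) between Col4a1 and Col4a2 ran from 0.662 to 0.993 over the 8 WT groups (n = 30 each) and Spearman's rho from 0.389 to 0.989, with a highest adjusted p of 0.036 by permutation. Without the 2 libraries farthest from the Col4a1 median r was 0.453 to 0.991, and within the longest number stretch 0.711 to 0.993. Col1a1 and Col1a2 gave r of 0.773 to 0.956 and rho of 0.772 to 0.956 (permutation, highest adjusted p = 1.4e-05), with r of 0.708 to 0.938 without the 2 farthest libraries and 0.658 to 0.951 within the stretch. Col6a1 and Col6a3 gave r of 0.677 to 0.927 and rho of 0.643 to 0.893 (permutation, highest adjusted p = 0.00015), with r of 0.666 to 0.857 and 0.667 to 0.955 under the same restrictions. Col1a1 and Col3a1, chains of types I and III, gave r of 0.711 to 0.914 and rho of 0.69 to 0.848 (permutation, highest adjusted p = 6.8e-05). Under the same restrictions their r was 0.661 to 0.859 and 0.711 to 0.956. Col5a1 and Col5a2, which share the type V trimer, were the exception in kidney: in Dchs1 WT kidney r was 0.126 (permutation p = 0.51) and rho 0.280 (p = 0.13). In Fat4 WT kidney r was 0.404 (permutation adjusted p = 0.027). In WT heart and lung r of this pair was 0.717 and 0.860 in the Dchs1 line and 0.705 and 0.835 in the Fat4 line. Of 50 correlations computed, 49 had an adjusted p of r under 0.05 with 100000 permutations each. TPM of chains in 1 library share its scaling and depth.

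In Dchs1 Het mice most called collagen chains were lower than in WT in heart, kidney and lung, and called chains went both ways in liver. In heart 17 of the 31 members tested were lower (54.8%) and 0 higher, beside 24.1% lower and 26.1% higher of all genes tested. In kidney 15 of 33 were lower (45.5%) and 3 higher (9.09%), beside 23.8% and 23.4% of all genes. In lung 17 of 34 were lower (50%) and 0 higher, beside 10.4% and 9.6%. In liver 5 of 23 were lower (21.7%) and 8 higher (34.8%), beside 25.4% and 24.3%. The median log2 fold change of the members was -0.26 in heart, -0.17 in kidney, -0.05 in liver and -0.20 in lung, and that of all genes between -0.004 and 0.009. A call here is an adjusted p under 0.05 by edgeR over all genes tested, and fold changes are Het minus WT. The labels number the libraries, and runs of numbers of 1 tissue were the only stand-in for a batch. Outside the longest run (number stretch) the Dchs1 groups held 5 to 7 libraries each. Among these, 9 members were called in the heart, 7 in the kidney, 4 in the liver and 1 in the lung of Dchs1 mice. The shares of all genes called in these smaller fits are not given, so the counts cannot be set beside those of other genes.

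In Fat4 Het mice few chains were called. In kidney 5 of 33 were lower (15.2%) and 0 higher, beside 7.87% lower and 9.21% higher of all genes. In liver 2 of 23 were higher (8.7%) and 1 lower (4.35%), beside 3.64% and 3.51%. In lung 1 of 35 was higher (2.86%) and 0 lower, beside 0.11% and 0.0259%. In heart 0 of 31 were called by edgeR and by DESeq2, beside 0.969% higher and 0.628% lower of all genes by edgeR. At an unadjusted p under 0.05 by edgeR there were 11 of the 31 members, beside 2276 of all 13213 genes tested. The members' median log2 fold change was -0.08, -0.09, 0.02 and -0.05 in Fat4 Het heart, kidney, liver and lung. In both lines these are bulk tissues, in which fewer cells of a type and less RNA per cell cannot be told apart. Of the 44 members, 38 were tested in at least 1 of the 8 comparisons, 33 were called in at least 1 Dchs1 comparison, 9 in at least 1 Fat4 comparison and 7 in both lines. The matching shares of all genes were not computed, so these totals cannot be set beside those of other genes.

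**Figure D3:**
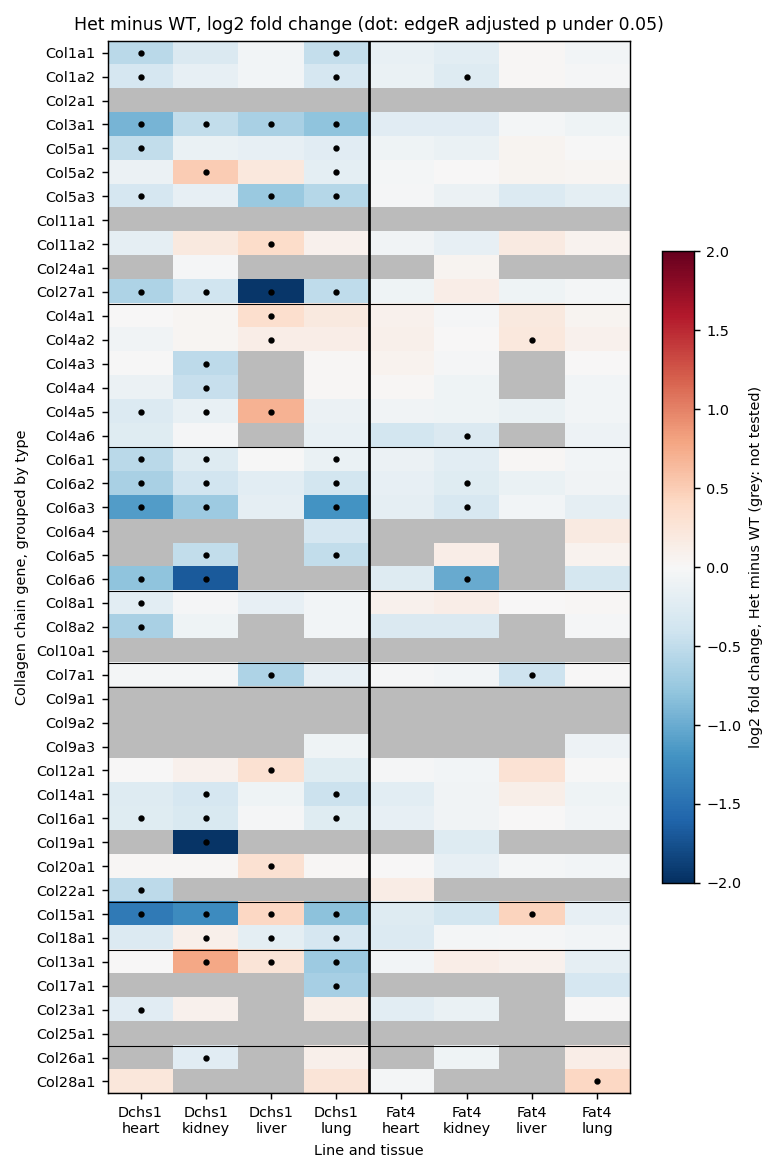
Log2 fold change, Het minus WT, of collagen chains in each line and tissue, by collagen type, in colour, with a dot at an edgeR adjusted p under 0.05 and grey where a chain was not tested. Calls below 0 fill Dchs1 heart, kidney and lung (17, 15 and 17 members), calls above 0 are most frequent in Dchs1 liver (8 members), and Fat4 has 9 calls in all.

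Col3a1, Col15a1 and Col27a1 were called in all 4 Dchs1 tissues, Col15a1 with opposite directions. Among fibrillar chains 6 of 8 tested fell in Dchs1 Het heart, 7 of 8 in lung, 3 of 8 in liver and 2 of 9 in kidney. Of all genes 24.1%, 10.4%, 25.4% and 23.8% were lower in these tissues. Col3a1, which co-assembles with type I in elastic tissues, had a lowest, median and highest level of 30.3, 67.2 and 143 CPM in Dchs1 Het heart, against 33.8, 143 and 228 CPM in WT heart. It was lower by 0.93 on the log2 scale (log2 fold change -0.93 ± 0.12 SE, edgeR adjusted p = 3.09e-09), and 29 of 30 Het hearts lay below the WT median, although the ranges overlapped. In lung its levels were 87.6, 189 and 381 CPM in Dchs1 Het against 119, 348 and 604 CPM in WT (log2 fold change -0.80 ± 0.119 SE, edgeR adjusted p = 6.44e-07). The falls in kidney and liver were smaller. Col3a1 stood at 7.3, 16.7 and 49.4 CPM in Dchs1 Het kidney against 11.7, 27.6 and 46.2 CPM in WT kidney (-0.50 ± 0.133 SE, edgeR adjusted p = 0.00153). It stood at 2.97, 7.63 and 28.6 CPM in Dchs1 Het liver against 3.84, 11.8 and 28.8 CPM in WT liver (-0.65 ± 0.181 SE, edgeR adjusted p = 0.00204). In these 2 tissues the highest Het library was close to the highest WT library. Outside the longest number stretch Col3a1 had log2 fold changes of -0.73 in heart and -0.74 in lung, but -0.46 in kidney (edgeR adjusted p = 0.34) and -0.20 in liver (adjusted p = 0.746), where neither was called.

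Type I followed in heart and lung. Col1a1, the major fibrillar chain, had 22.5, 43.8 and 76.6 CPM in Dchs1 Het heart against 27.9, 65.7 and 84.3 CPM in WT heart (log2 fold change -0.54 ± 0.0915 SE, edgeR adjusted p = 1.34e-06). In lung it had 55.6, 112 and 166 CPM in Dchs1 Het against 68.8, 154 and 215 CPM in WT (-0.47 ± 0.0776 SE, edgeR adjusted p = 6.19e-06). In each of these tissues 29 of 30 Het libraries lay below the WT median within overlapping ranges. Its log2 fold change was -0.29 in Dchs1 kidney (adjusted p = 0.0892) and -0.05 in Dchs1 liver (adjusted p = 0.823), both short of the threshold. Col1a2, its partner, fell by 0.34 on the log2 scale in Dchs1 Het heart (edgeR adjusted p = 7.22e-05) and by 0.34 in lung (adjusted p = 0.000236).

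The type V chains and Col27a1 were called in several tissues. Col5a1, which helps start fibrils, fell by 0.49 on the log2 scale in Dchs1 Het heart (edgeR adjusted p = 5.85e-08). Col5a2, its partner, went the other way in kidney, at 11.4, 16.4 and 28.8 CPM in Dchs1 Het against 8.26, 11.3 and 22.3 CPM in WT (log2 fold change 0.51 ± 0.0832 SE, edgeR adjusted p = 6.7e-07), and all 30 Het kidneys lay above the WT median. Col5a3 in lung stood at 1.74, 4.23 and 6.38 CPM in Dchs1 Het against 4.53, 6.23 and 8.56 CPM in WT, and 20 of 30 Het lungs lay below the lowest WT lung (-0.57 ± 0.082 SE, edgeR adjusted p = 3.43e-07). Col5a3 also fell in Dchs1 Het liver, with medians of 12.9 CPM in Het and 20 CPM in WT (-0.75 ± 0.153 SE, edgeR adjusted p = 4.68e-05). The largest fibrillar fall was that of Col27a1 in liver. It stood at 0.907, 3.58 and 10.2 CPM in Dchs1 Het liver against 4.15, 14 and 39.5 CPM in WT liver, with 17 of 29 Het livers below the lowest WT liver (-1.95 ± 0.217 SE, edgeR adjusted p = 5.22e-11). In kidney, its leading tissue, Col27a1 had 51, 122 and 228 CPM in Dchs1 Het against 115, 156 and 215 CPM in WT (-0.40 ± 0.0886 SE, edgeR adjusted p = 0.000144), and Het kidneys spread wider than WT kidneys on both sides. Outside the longest number stretch its log2 fold change was -1.52 in liver (edgeR adjusted p = 0.0084) and -0.16 in kidney (adjusted p = 0.51).

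Type IV differed by tissue in Dchs1 Het mice. Of the 6 chains 3 fell in kidney and 1 in heart, beside 23.8% and 24.1% lower of all genes. In lung the log2 fold changes of the 6 chains lay between -0.15 (Col4a6, edgeR adjusted p = 0.0829) and 0.19 (Col4a1, adjusted p = 0.173). In liver all 3 tested rose, beside 24.3% higher of all genes. In kidney the pair of the glomerular membrane fell. Col4a3 had 117, 171 and 232 CPM in Dchs1 Het kidney against 166, 242 and 381 CPM in WT kidney (log2 fold change -0.53 ± 0.0667 SE, edgeR adjusted p = 1.63e-09). Col4a4 had 115, 140 and 172 CPM in Dchs1 Het kidney against 142, 193 and 256 CPM in WT kidney (-0.46 ± 0.0422 SE, edgeR adjusted p = 6.77e-14). All 30 Het kidneys lay below the WT median for both chains, and 14 and 17 of them below the lowest WT kidney. In lung Col4a3 and Col4a4 had log2 fold changes of 0.02 and 0.03 (edgeR adjusted p = 0.958 and 0.826). Col4a1 rose in Dchs1 Het liver, at 27.7, 36.6 and 52.1 CPM against 23, 28.9 and 41.9 CPM in WT liver (0.33 ± 0.0535 SE, edgeR adjusted p = 6.03e-07), with 27 of 29 Het livers above the WT median. Col4a5 rose there too, with medians of 3.2 CPM in Het and 1.74 CPM in WT (0.69 ± 0.168 SE, edgeR adjusted p = 0.000483). Col4a2, the partner of Col4a1, rose less in Dchs1 Het liver (0.14 ± 0.0479 SE, edgeR adjusted p = 0.0135). Of the smooth muscle and pericyte markers 2 of 5 tested were higher there. Their summed median was 37.9 CPM (22 to 70) in Dchs1 Het liver and 26.5 CPM (19.7 to 50.1) in WT liver. Of 5 endothelial markers 1 was higher and 2 were lower. Their summed median was 91.8 CPM (55.2 to 121) in Dchs1 Het liver and 95.4 CPM (72 to 121) in WT liver. The part of either list was not tested.

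Type VI fell in every Dchs1 tissue but liver. All 4 chains tested fell in heart, all 5 in kidney and 4 of 5 in lung, beside 24.1%, 23.8% and 10.4% lower of all genes. The 3 tested in liver had edgeR adjusted p-values of 0.156 or more. Col6a3, the chain that carries most of the filament's mass, had the largest fall of its type in heart and lung. In heart it stood at 4.48, 11.8 and 21.5 CPM in Dchs1 Het against 6.64, 25.7 and 37.6 CPM in WT (log2 fold change -1.11 ± 0.115 SE, edgeR adjusted p = 4.32e-12). In lung it stood at 16.5, 34.9 and 53.6 CPM in Dchs1 Het against 24.8, 79.5 and 128 CPM in WT (-1.20 ± 0.116 SE, edgeR adjusted p = 1.74e-11). In kidney it stood at 4.93, 8 and 14.3 CPM in Dchs1 Het against 4.96, 14.6 and 19 CPM in WT (-0.73 ± 0.0988 SE, edgeR adjusted p = 1.05e-08). All 30 Het libraries lay below the WT median in each of these tissues, and the lowest WT value in each is that of the library that lay with the Het libraries. Without that library the log2 fold change was -1.15 in heart, -0.75 in kidney and -1.23 in lung. Outside the longest number stretch it was -1.12, -0.82 and -0.74 in these tissues, and the call was lost in lung (edgeR adjusted p = 0.109). In liver Col6a3 had medians of 4.97 CPM in Dchs1 Het and 5.85 CPM in WT (-0.18, adjusted p = 0.156).

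The other type VI chains fell less, apart from Col6a6. Col6a1 in heart had 21.3, 38.6 and 61.2 CPM in Dchs1 Het against 26.2, 59.7 and 75.2 CPM in WT (log2 fold change -0.54 ± 0.0774 SE, edgeR adjusted p = 3.33e-08). In lung it had 128, 192 and 239 CPM in Dchs1 Het against 164, 204 and 283 CPM in WT (-0.14 ± 0.0507 SE, edgeR adjusted p = 0.034). Col6a2 fell by 0.65 on the log2 scale in Dchs1 Het heart (edgeR adjusted p = 1.33e-08), by 0.39 in kidney (adjusted p = 0.000783) and by 0.36 in lung (adjusted p = 2.67e-05). Col6a6, which is low outside heart, had 2.44, 3.7 and 5.51 CPM in Dchs1 Het heart against 3.41, 6.68 and 10.7 CPM in WT heart (-0.80 ± 0.0838 SE, edgeR adjusted p = 6.36e-12). In kidney it had 0.153, 0.445 and 0.796 CPM in Dchs1 Het against 0.32, 1.17 and 4.11 CPM in WT (-1.68 ± 0.189 SE, edgeR adjusted p = 4.87e-11). All 30 Het libraries lay below the WT median in both tissues.

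**Figure D4:**
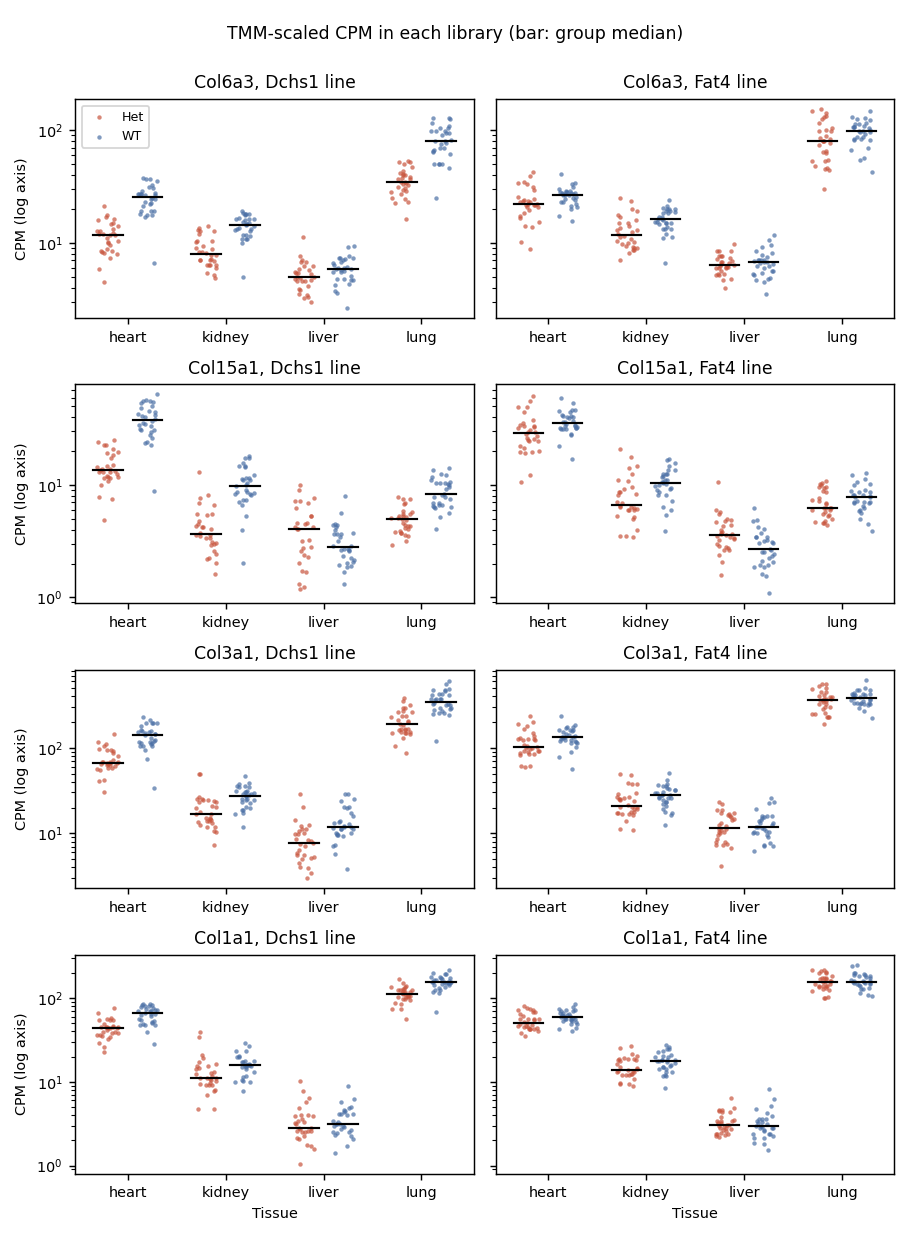
TMM-scaled CPM of Col6a3, Col15a1, Col3a1 and Col1a1 in every library of the Dchs1 and Fat4 lines, on a logarithmic axis, with Het left of WT in each tissue and bars at group medians. Col6a3 medians are 11.8 in Het and 25.7 in WT hearts, and 34.9 in Het and 79.5 in WT lungs of the Dchs1 line, and 1 Dchs1 WT heart lies apart at 6.64.

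The unequal falls changed the proportion of chains within type VI. The TPM ratio of Col6a1 to Col6a3 averaged 12.8 ± 3.34 in Dchs1 Het lung and 6.46 ± 2.38 in WT lung (SD, n = 30 each), and all 30 Het lungs lay above the WT median. The difference in the log2 ratio was 1.10 within the longest number stretch and 0.66 outside it. In heart the ratio was 8.31 ± 1.5 in Dchs1 Het and 5.58 ± 0.934 in WT, and in kidney 4.25 ± 0.878 in Dchs1 Het and 3.1 ± 0.7 in WT. The adjusted p was 5.3e-05 in heart, kidney and lung, the smallest that 100000 permutations over 58 ratios gave (two-sided permutation test). In Dchs1 liver the ratio was 3.05 ± 0.656 in Het and 2.71 ± 0.501 in WT (permutation adjusted p = 0.05). In Fat4 lung it was 6.66 ± 2.2 in Het and 5.75 ± 1.49 in WT (permutation adjusted p = 0.12). These ratios were compared after the single chains had been seen and rest on the same libraries, so they restate the differences per chain as a proportion. Of the 58 ratios 21 of 29 in the Dchs1 line and 2 of 29 in the Fat4 line had an adjusted p under 0.05. Col3a1 over Col1a1 fell to 1.42 ± 0.219 in Dchs1 Het heart, against 1.84 ± 0.287 in WT heart, and to 2.17 ± 0.583 in Dchs1 Het liver, against 3.28 ± 0.838 in WT liver (permutation adjusted p = 5.3e-05 each). Col5a2 over Col5a1 was 2.49 ± 0.893 in Dchs1 Het kidney and 1.55 ± 0.518 in WT kidney (permutation adjusted p = 5.3e-05). Col4a3 over Col4a4 in Dchs1 kidney, whose chains fell together, was 1.13 ± 0.121 in Het and 1.18 ± 0.148 in WT (permutation adjusted p = 0.24).

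**Figure D5:**
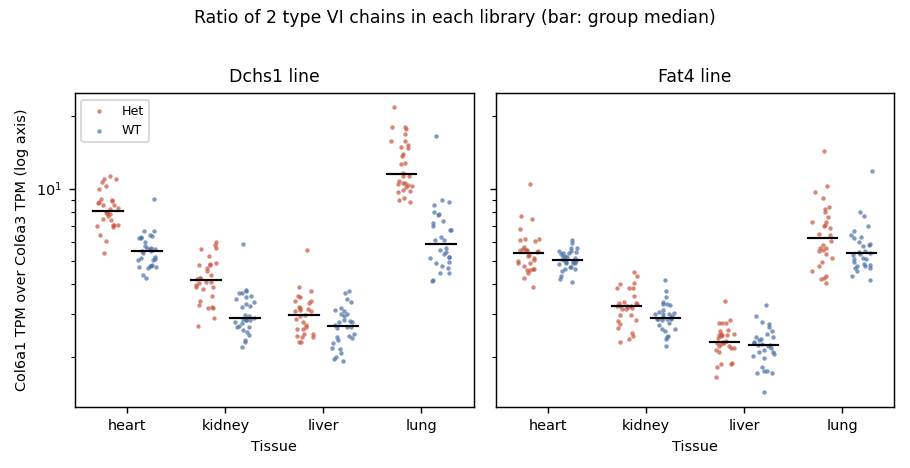
TPM ratio of Col6a1 to Col6a3 in every library of each line and tissue, on a logarithmic axis, Het left of WT, with bars at group medians. The mean ratio is 12.8 in Dchs1 Het lung and 6.46 in Dchs1 WT lung, against 6.66 in Fat4 Het lung and 5.75 in Fat4 WT lung.

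The multiplexin Col15a1 had the largest fall of any chain in Dchs1 Het heart. It stood at 4.89, 13.5 and 24.9 CPM in Dchs1 Het heart against 8.85, 37.9 and 64.1 CPM in WT heart (log2 fold change -1.41 ± 0.128 SE, edgeR adjusted p = 9.57e-14), and the WT minimum is again the library that lay with the Het libraries. The other WT hearts started at 22.6 CPM. In kidney it stood at 1.6, 3.67 and 13 CPM in Dchs1 Het against 2.02, 9.86 and 18 CPM in WT (-1.26 ± 0.159 SE, edgeR adjusted p = 1.48e-09). In lung it stood at 2.91, 4.97 and 7.82 CPM in Dchs1 Het against 4.07, 8.29 and 14 CPM in WT (-0.82 ± 0.104 SE, edgeR adjusted p = 2.83e-08). In liver the direction was the opposite, with medians of 4.06 CPM in Dchs1 Het and 2.78 CPM in WT (0.42 ± 0.18 SE, edgeR adjusted p = 0.0438), 19 of 29 Het livers above the WT median. Without the WT liver that lay with the Het libraries that difference missed the threshold (0.41, edgeR adjusted p = 0.0545). Col18a1, which led the liver, fell slightly there, at 451, 633 and 840 CPM in Dchs1 Het against 581, 686 and 900 CPM in WT (-0.19 ± 0.0465 SE, edgeR adjusted p = 0.000534), and 10 of 29 Het livers lay below the lowest WT liver. It fell in Dchs1 Het lung by 0.33 (edgeR adjusted p = 0.00101) and rose in Dchs1 Het kidney by 0.10 (adjusted p = 0.0107).

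Some fibril-associated and transmembrane chains were called in each Dchs1 tissue. Of the fibril-associated chains 2 of 5 tested were lower in heart, 3 of 5 in kidney and 2 of 5 in lung, and 2 of 4 were higher in liver. Of the transmembrane chains 1 of 2 tested was lower in heart and 2 of 3 in lung, and 1 of 2 was higher in kidney and 1 of 1 in liver. Of all genes 24.1% were lower in heart, 23.8% in kidney and 10.4% in lung, and 23.4% were higher in kidney and 24.3% in liver. Col19a1, a fibril-associated chain of specialised basement membrane zones, had the largest fall of any chain in Dchs1 kidney. It stood at 0.36, 0.741 and 1.23 CPM in Dchs1 Het kidney against 0.925, 2.56 and 6.07 CPM in WT kidney, with 24 of 30 Het kidneys below the lowest WT kidney (log2 fold change -1.96 ± 0.167 SE, edgeR adjusted p = 4.46e-15). Col14a1, which decorates type I fibrils, fell in Dchs1 Het kidney by 0.33 (edgeR adjusted p = 0.000344) and lung by 0.43 (adjusted p = 0.00136). Col16a1 fell by 0.24 to 0.30 in Dchs1 Het heart, kidney and lung. Col13a1, a transmembrane chain of cell contacts, moved in opposite directions. It had 7.03, 11.3 and 20.8 CPM in Dchs1 Het kidney against 3.09, 6.92 and 18.4 CPM in WT kidney (0.78 ± 0.131 SE, edgeR adjusted p = 1.2e-06), with all 30 Het kidneys above the WT median. In lung it had 12.1, 20.9 and 39 CPM in Dchs1 Het against 10.9, 35.8 and 53.4 CPM in WT (-0.73 ± 0.124 SE, edgeR adjusted p = 1.04e-05). Col17a1, the hemidesmosome chain of epithelia, fell in Dchs1 Het lung, with medians of 2.5 CPM in Het and 4.01 CPM in WT (-0.67 ± 0.101 SE, edgeR adjusted p = 1.05e-06). Both type VIII chains, Col8a1 and Col8a2, fell in Dchs1 Het heart, by 0.21 and 0.65 on the log2 scale (edgeR adjusted p = 0.00103 and 0.00028), and Col7a1, the anchoring fibril chain, fell in Dchs1 Het liver by 0.62 (adjusted p = 0.000707).

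Summed over types, the collagen transcripts of Dchs1 Het hearts, livers and lungs held a larger mean share of type IV than those of WT. The summed TPM of the 44 members was 273 ± 37.3 in Dchs1 Het and 331 ± 43.4 in WT hearts, and 897 ± 209 in Dchs1 Het and 1040 ± 277 in WT lungs (SD, n = 30 each). Type IV made up 58.2 ± 5.11% in Dchs1 Het and 49.2 ± 5.59% in WT hearts, and 51.5 ± 6.9% in Dchs1 Het and 42.9 ± 5.29% in WT lungs. Fibrillar chains made up 25.1 ± 3.35% in Dchs1 Het and 30 ± 3.6% in WT hearts. The liver share of type IV was 6.57 ± 0.871% in Dchs1 Het (n = 29) and 4.83 ± 0.76% in WT. The kidney share of type IV was 57.4 ± 2.74% in Dchs1 Het and 57.8 ± 2.57% in WT, although Col4a3 and Col4a4 fell there. In the Fat4 line the type IV share was 52.6 ± 5.77% in Het and 48.3 ± 5.03% in WT hearts, and 46.6 ± 5.51% and 44.9 ± 4.01% in lungs. It was 5.73 ± 1.06% in Fat4 Het and 5.01 ± 0.8% in WT livers, and 58 ± 2.07% and 57.5 ± 1.82% in kidneys. These shares were not tested.

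The chains called in Fat4 Het kidney were 3 of type VI, 1 fibrillar and 1 of type IV. Col6a6 had 0.118, 0.58 and 1.98 CPM in Fat4 Het kidney against 0.442, 1.3 and 4.39 CPM in WT kidney (log2 fold change -1.01 ± 0.204 SE, edgeR adjusted p = 0.000518), with 28 of 30 Het kidneys below the WT median. Col6a3 had 7.01, 11.8 and 24.8 CPM in Fat4 Het kidney against 6.57, 16.2 and 23.9 CPM in WT kidney (-0.32 ± 0.103 SE, edgeR adjusted p = 0.0236), with nearly equal ranges. Col1a2, Col6a2 and Col4a6 fell there by 0.26, 0.24 and 0.29 (edgeR adjusted p = 0.00804, 0.0492 and 0.00781). Among the few libraries outside the longest number stretch edgeR called 0 chains in Fat4 kidney, with 1 at an unadjusted p under 0.05, and Col6a2 and Col1a2 had log2 fold changes of 0.24 and 0.13. Endothelial markers were also lower in Fat4 Het kidney, 4 of 5 called, beside 7.87% lower of all genes. Their summed median was 347 CPM (296 to 424) against 380 CPM (321 to 455) in WT kidney. Of the kidney tissue markers Umod, Slc34a1 and Slc12a1, 2 of 3 were lower there, with a summed median of 4160 CPM (3300 to 5520) against 4620 CPM (3370 to 5800) in WT kidney. The part of either list in the falls was not tested.

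Elsewhere in the Fat4 line calls were small. Col4a2 and Col15a1 rose in Fat4 Het liver by 0.21 and 0.44 on the log2 scale (edgeR adjusted p = 0.0249 and 0.0362), and Col7a1 fell there by 0.42 (adjusted p = 0.0297). Col28a1, a chain known from peripheral nerve, rose in Fat4 Het lung, at 1.95, 2.68 and 4.58 CPM against 1.3, 2 and 3.68 CPM in WT lung (0.42 ± 0.0867 SE, edgeR adjusted p = 0.0185), with 29 of 30 Het lungs above the WT median. None of 4 Schwann cell markers was called in Fat4 lung, where only 0.11% of all genes were higher and 0.0259% lower. Their summed medians were 58.2 CPM in Het and 60.5 CPM in WT, and their part was not tested. Col3a1 had log2 fold changes of -0.23, -0.22, -0.04 and -0.09 in Fat4 Het heart, kidney, liver and lung, and Col1a1 -0.15, -0.21, 0.03 and -0.05. Their smallest edgeR adjusted p was 0.126, for Col1a1 in kidney. In Fat4 lung Col6a3 had 29.8, 80.4 and 153 CPM in Het against 42.7, 98.6 and 149 CPM in WT (-0.18 ± 0.124 SE, edgeR adjusted p = 0.659).

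The difference between the lines was tested itself. For 14 of 31 members in heart (45.2%) the log2 fold change of Dchs1 Het differed from that of Fat4 Het, all 14 more negative in the Dchs1 line, beside 25.5% of all genes. In kidney 12 of 33 differed (36.4%), beside 33.5%, of which 7 were more negative and 5 more positive in the Dchs1 line. In liver 4 of 25 differed (16%), beside 23.6%, and in lung 10 of 35 (28.6%), beside 5%, all 10 more negative in the Dchs1 line. Col6a3 differed by -0.94 ± 0.155 in heart and -1.03 ± 0.172 in lung (log2, Dchs1 minus Fat4, SE, edgeR adjusted p = 1.59e-06 and 7.44e-05). Col15a1 differed by -1.15 ± 0.174 in heart (edgeR adjusted p = 2.55e-07), Col27a1 by -1.85 ± 0.265 in liver (adjusted p = 4.13e-08) and Col19a1 by -1.69 ± 0.25 in kidney (adjusted p = 2.16e-08). Line and library numbers run together, so the line and the order of the libraries cannot be told apart.

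The genotype difference also varied among tissues of the Dchs1 line. It did so for 24 of 38 members (63.2%), beside 52.2% of all genes, led by Col13a1, Col15a1 and Col27a1 (edgeR interaction, adjusted p = 2.28e-16, 4.52e-15 and 1.68e-14). In the Fat4 line it did so for 2 of 38 members (5.26%), Col6a6 and Col15a1, beside 7.13% of all genes (adjusted p = 0.00127 and 0.00987).

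Genes that process collagen were called in both directions. Of 20 genes for intracellular assembly, 9 of 19 tested were lower and 5 higher in Dchs1 Het heart, beside 24.1% lower and 26.1% higher of all genes. The counts were 7 lower and 6 higher of 19 for kidney (23.8% and 23.4% of all genes), 4 lower and 5 higher of 19 for liver (25.4% and 24.3%), and 4 lower and 4 higher of 20 for lung (10.4% and 9.6%). The collagen chaperone Serpinh1, which binds procollagen only, had a median of 59.6 CPM in Dchs1 Het heart and 91.2 CPM in WT heart, with all 30 Het hearts below the WT median (log2 fold change -0.55 ± 0.0499 SE, edgeR adjusted p = 6.75e-14). In lung it had medians of 136 CPM in Dchs1 Het and 181 CPM in WT (-0.39, adjusted p = 2.68e-07), and in liver its log2 fold change was 0.01 (adjusted p = 0.965). It was lower in Fat4 Het heart and kidney as well, by 0.17 and 0.14 (adjusted p = 0.0283 and 0.000615). The crosslinking enzyme gene Lox went the other way. Its medians were 32.6 CPM in Dchs1 Het and 15.4 CPM in WT heart (edgeR adjusted p = 1.4e-09), with all 30 Het hearts above the WT median, and 325 CPM in Dchs1 Het and 133 CPM in WT lung (1.12 ± 0.182 SE, edgeR adjusted p = 4.43e-06). Of the 12 genes for propeptide removal and crosslinking, 4 were lower and 3 higher in both of these tissues. For kidney 1 was lower and 4 were higher, and for liver 2 of 10 tested were lower and 4 higher. Pcolce, which speeds removal of the carboxyl propeptide, fell by 0.57 in Dchs1 Het lung.

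Breakdown, receptor and TGF beta genes gave mixed counts, to be read beside the same shares of all genes. Of the 12 breakdown genes 10, 10, 6 and 12 were tested in Dchs1 Het heart, kidney, liver and lung, and 3, 4, 1 and 2 of these were lower and 2, 2, 3 and 3 higher. Mmp8, the neutrophil collagenase, had a median of 18.8 CPM in Dchs1 Het lung and 5.13 CPM in WT lung (log2 fold change 1.56, edgeR adjusted p = 2.94e-07). Of the 9 receptor genes 7, 7, 7 and 8 were tested, and 3, 2, 1 and 2 were lower and 1, 0, 4 and 0 higher in those tissues. Of the 10 TGF beta genes, all tested, 2, 1, 1 and 1 were lower and 5, 4, 4 and 2 higher. Ccn2, a TGF beta and YAP target, had a median of 533 CPM in Dchs1 Het heart and 216 CPM in WT heart (1.08, adjusted p = 2.87e-07). In the Fat4 line at most 4 genes of any list of this and the preceding paragraph were called in a tissue. These were 2 higher and 2 lower of 19 assembly genes tested in kidney, beside 9.21% higher and 7.87% lower of all genes.

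Fibroblast markers gave mixed calls beside the fibrillar chains. Of Pdgfra, Dcn, Lum, Dpt, Tcf21 and Pi16, 3 were lower and 1 higher in Dchs1 Het heart, beside 24.1% lower and 26.1% higher of all genes, and 2 were lower in lung, beside 10.4%. In kidney 2 were higher, beside 23.4% of all genes, and in liver 2 of 5 tested, beside 24.3%. Their summed level had a median of 843 CPM (679 to 1030) in Dchs1 Het heart and 830 CPM (692 to 1010) in WT heart, and 1070 CPM (881 to 1180) in Dchs1 Het lung and 976 CPM (831 to 1220) in WT lung. Lum, a small proteoglycan that binds collagen fibrils, fell by 0.60 in Dchs1 Het heart and 0.93 in lung (edgeR adjusted p = 2.65e-08 and 3.6e-08), while Dcn, a proteoglycan of the same family, rose in heart by 0.11. Schwann cell markers were lower in Dchs1 Het heart, 3 of 3 tested, with summed medians of 13.3 CPM (8.5 to 16.7) in Het and 15.8 CPM (10.1 to 20.7) in WT, and their part was not tested. Of 4 stellate cell markers in Dchs1 liver 1 was higher and none lower, summed at 67.9 CPM in Het and 64 CPM in WT. Of 4 mesothelial markers 1 was higher in Dchs1 Het heart and in Dchs1 Het kidney and 1 lower in Fat4 Het kidney. Of 3 alveolar type 1 markers both tested were higher in Dchs1 Het kidney, and 1 of 3 was higher and 1 lower in Dchs1 Het lung. The 1 tested in liver was higher in both lines. Of all genes 7.87% were lower in Fat4 Het kidney and 3.64% higher in Fat4 Het liver. In the Fat4 line the fibroblast markers had edgeR adjusted p-values of 0.0783 (Dpt in heart) or more, with median log2 fold changes of -0.09, -0.17, 0.05 and 0.04 in heart, kidney, liver and lung.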

How the data were processed

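Poly(A) RNA was sequenced single-end from strand-specific libraries, per the labels' protocols, whose read lengths conflict. FastQC, bcl2fastq 2.17 and the build GRCm38 are named in the submitters' processing notes. Not given in the sources used here are the aligner, the counting program and its use of strand. The authors deposited estimated counts per gene, of which 15.35% (Dchs1) and 15.51% (Fat4) were not whole, so reads of overlapping or similar genes may have been divided, and the same libraries as TPM, which keep no depth. All columns matched a labelled library and 0 were left unused. Every pair of libraries within a group differed by more than sampling noise (chi-square per gene of at least 3.48).

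The rounded counts were fitted in edgeR 4.0.16 (R 4.3.3; TMM, filterByExpr with a minimum count of 10 and a minimum total of 15, quasi-likelihood F test), each comparison fitted over all genes of its own libraries. Adjustment was by Benjamini-Hochberg, with a threshold of 0.05. Standard errors (SE) were derived from the log2 fold change and its F statistic. A gene of 1 CPM has 10 or more reads in each library. The tests were tried on simulated data with known changes. Ratios of chains and correlations were taken on TPM with 100000 permutations, correlations where both chains averaged at least 1 TPM. The position of a library used the 500 genes of largest difference between the Het and WT means of the remaining libraries. They were taken from genes with a mean log2(CPM + 1) over 3 that are no collagen chains.

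Alternatives were DESeq2 1.42.0, its size factors in edgeR, limma 3.58.1 on log2(TPM + 1), no filter, the number stretch as a covariate, the longest stretch only, the libraries outside it, and fits without outlying libraries (over 5 median absolute deviations). Fits without the WT library that lay with the Het libraries, the ratios of chains and the TMM scale for tissue levels were added after seeing the data. Members, lists and tests were chosen with earlier results of these data known. Named genes are Col1a1, Col3a1 and Col6a3 everywhere, up to 8 called members with the smallest p and at least 1 CPM per comparison, up to 3 per interaction and up to 3 per list, and members named elsewhere were added for their roles after their values were seen. The result of 1 marker list is not reported here. Promoters are from RefSeq.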

Additional observations from a re-analysis of the deposited data

Results flagged for a closer look

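These results are listed because the Het minus WT difference itself differed between groups by an interaction test of edgeR. Among the tissues of the Dchs1 line the difference varied most for Col13a1 (adjusted p = 2.28e-16), Col15a1 (4.52e-15) and Col27a1 (1.68e-14). Among the tissues of the Fat4 line it varied for Col6a6 (adjusted p = 0.00127) and Col15a1 (0.00987).

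Between the lines, the following values are log2 fold changes of Dchs1 Het minus those of Fat4 Het, so that a negative value means a more negative difference in the Dchs1 line. In heart they were -1.15 for Col15a1, -0.94 for Col6a3 and -0.31 for Col5a3 (edgeR adjusted p = 2.55e-07, 1.59e-06 and 4.64e-05). In kidney they were -1.69 for Col19a1, -0.36 for Col4a4 and -0.50 for Col4a3 (adjusted p = 2.16e-08, 1.15e-07 and 1.66e-06). In liver they were -1.85 for Col27a1, 0.85 for Col4a5 and -0.60 for Col3a1 (adjusted p = 4.13e-08, 0.000588 and 0.0416). In lung they were -1.03 for Col6a3, -0.72 for Col3a1 and -0.66 for Col15a1 (adjusted p = 7.44e-05, 0.00155 and 0.00275).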

How the results depend on the processing

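No paired analysis was possible because the labels give no shared replicate numbers. Outside the longest number stretch, where groups held 3 to 8 libraries, the number of members called was 9 for Dchs1 heart, 7 for kidney, 4 for liver and 1 for lung, and by edgeR 0 for Fat4 kidney and liver, with 1 and 2 members at an unadjusted p under 0.05. Within the longest stretch it was 8 in Dchs1 liver, 12 in Fat4 kidney and 1 in Fat4 liver, and with the stretch as a covariate 8 in Fat4 kidney. With limma on log2(TPM + 1) it was 6 in Dchs1 liver, 3 in Fat4 kidney, 0 in Fat4 liver and lung (2 and 5 at an unadjusted p under 0.05), 1 for the liver and 4 for the lung difference between lines. The smaller groups are part of each fit outside the stretch, and the other causes were not tested. Shares of all genes called under the alternative settings are not given, so these counts cannot be set beside those of other genes. Signs turned outside the stretch for Col6a2 (0.24) and Col1a2 (0.13) in Fat4 kidney and for the log2 ratio of Col4a1 to Col4a2 in Dchs1 heart (-0.01). DESeq2 kept the direction and call of all 74 single results it was run on, and leaving out the WT library that lay with the Het libraries kept 64 of 65. Fat4 lung held 1 stretch, so no fit by stretch could be made there.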
